A study of Mus musculus with 6 samples.

Results

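The genes described here are 9 transporters and channels that move water and ions across exocrine secretory epithelia: the aquaporins Aqp1, Aqp3, Aqp4 and Aqp5, the cotransporter gene Slc12a2, the sodium pump subunit gene Atp1b1, the chloride channel genes Cftr and Ano1 and the potassium channel gene Kcnn4. They were chosen by symbol for this role, with earlier results of these data known. All 9 were found among the 23420 gene symbols of the count tables. RNA was sequenced from E14.5 mouse lacrimal gland epithelium that had been laser-captured from frozen embryos of mixed background, in 3 Control and 3 Pea3 TKO libraries. The Control embryos carried the Le-Cre transgene, the only allele their labels give (their titles call them WT), and the Pea3 TKO embryos carried Le-Cre together with a Pea3-/- genotype and floxed Erm and Er81 alleles (Ermfl/fl, Er81fl/fl). Pea3, Erm and Er81 are the older names of Etv4, Etv5 and Etv1, the ETS transcription factors of the Pea3 group that act downstream of FGF signaling. Both copies of Pea3 were therefore mutant in every tissue of these embryos, whereas Erm and Er81 were deleted only where Le-Cre is active, which includes the epithelium of the eye surface and of the gland. Both groups carried the Cre transgene. The labels do not say whether a library came from a single embryo or from several, so the p-values measure only the spread between these libraries.

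In a mature exocrine gland the sodium pump (Atp1b1 encodes its beta1 subunit) keeps the sodium gradient, and the cotransporter NKCC1 (Slc12a2) uses it to load chloride into the cell across the basolateral membrane. Chloride leaves across the apical membrane through the calcium-activated channel of Ano1 or the cyclic AMP-regulated channel of Cftr, while calcium-activated potassium channels such as that of Kcnn4 keep the membrane potential that drives it. Water follows through aquaporins, with Aqp5 as the apical water channel of mature lacrimal acini. The bud at this age is an outgrowth of the conjunctival epithelium that has not yet formed acini.

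Levels are given as CPM, counts per 1e6 counts of the library after TMM normalization, and the groups were compared by the edgeR quasi-likelihood test with Benjamini-Hochberg adjustment over all genes tested and a threshold of 0.05. Of the 9 genes, 7 had enough counts to be tested. In Pea3 TKO, Cftr, Aqp3, Ano1 and Atp1b1 rose, by factors from 2.64 for Atp1b1 to 11.2 for Cftr, and Kcnn4 fell 16.9-fold. Slc12a2 and Aqp4 did not pass the test, and Aqp1 and Aqp5 were too low to be tested. Thus 4 of the 7 tested genes were higher and 1 was lower, beside 25.0% of all 13087 tested genes called in either direction, 13.6% higher and 11.3% lower. In 5 of the 7 the values of the groups did not overlap, which also held for 43.9% of all tested genes. The median absolute log2 fold change was 1.97 over the 7 genes and 0.38 over all tested genes, whose median signed change was 0.01.

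**Figure D1:**
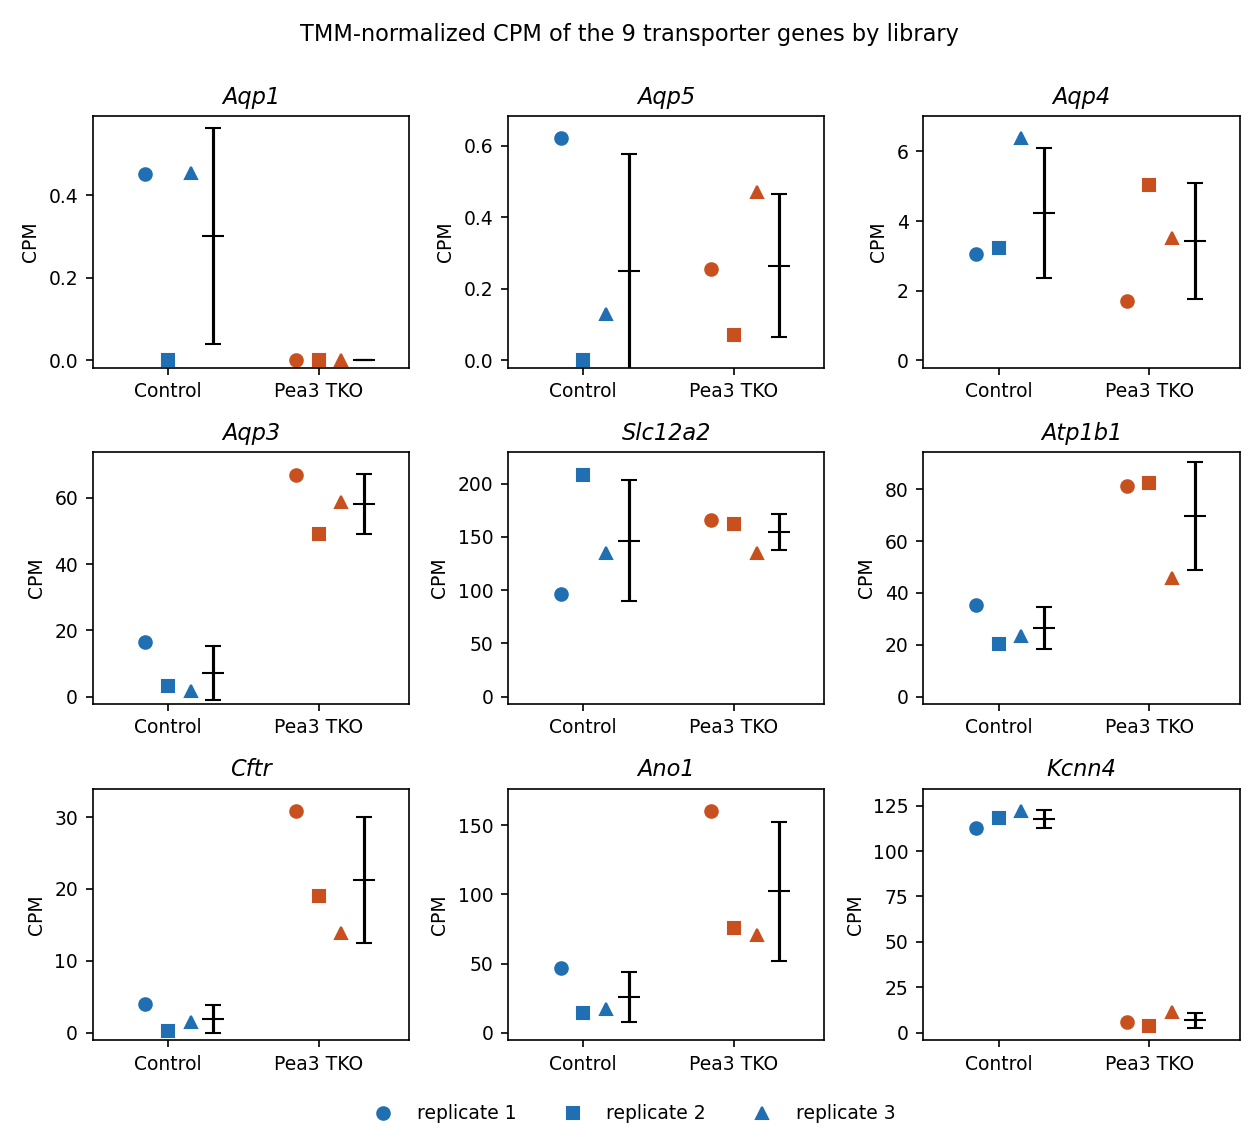
Normalized level (CPM, linear axes that differ between panels) of each of the 9 transporter genes in the 3 Control (blue) and 3 Pea3 TKO (orange) libraries, with symbols for the replicate number and black bars for the mean ± SD, cut off where they would pass below the axis. Kcnn4 lay between 113 and 122 CPM in the Control libraries and at 11.4 CPM or less in the Pea3 TKO libraries, while Aqp3, Atp1b1, Cftr and Ano1 were higher in every Pea3 TKO library than in any Control library.

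The library totals ran from 14194775 to 17860140 counts, so that 3 counts, the floor used for a gene with no reads, corresponded to 0.169 to 0.21 CPM (counting error only, since PCR copies are not independent molecules). The targeted genes followed the labels: Etv5 was 961 to 1202 CPM in the Control and 88.2 to 177 CPM in the Pea3 TKO libraries, Etv4 129 to 184 against 10.9 to 28.4 CPM, and Etv1 28.7 to 33.9 against 9.21 to 9.99 CPM. Reads of these genes thus remained in the Pea3 TKO libraries, and whether they came from the mutant alleles was not tested. The epithelial markers Pax6, Cdh1 and Epcam were present in every library, and all 11 lacrimal epithelium markers passed the low-count filter. Of these, 5 were higher in Pea3 TKO (Pax6, Cdh1, Krt8, Krt18 and Fgfr2) and 4 were lower, Sox9, Sox10 and Six2 among them. These counts stand beside 13.6% higher and 11.3% lower of all tested genes. The 11 markers summed to 4051 to 4847 CPM in the Control and 5708 to 6523 CPM in the Pea3 TKO libraries. The summed level of 4 Y-linked genes was 136 to 175 CPM in the Control libraries and 139 CPM in Pea3 TKO 3, but 0.444 and 0.210 CPM in Pea3 TKO 1 and 2. The labels do not give the sex of the embryos, and none of the 9 genes lies on a sex chromosome.

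The potassium channel gene was the only one of the 7 tested that fell. Kcnn4 (chr7:24370263-24386690, plus strand, GRCm38) encodes the intermediate-conductance calcium-activated potassium channel, which lets potassium leave when cell calcium rises. It had 113, 118 and 122 CPM in Control 1, 2 and 3, from 1997, 1894 and 1877 counts, and 5.65, 3.64 and 11.4 CPM in Pea3 TKO 1, 2 and 3, from 89, 52 and 194 counts. The Control libraries were close together, with a coefficient of variation of 4.05%, and every Pea3 TKO library was far below all of them. The means were 118 ± 4.76 and 6.89 ± 4.03 CPM (SD, n = 3 each), a log2 fold change of -4.08 (SE 0.34, adjusted p = 7.9e-05), and the 95% interval of the fall ran from 9.94-fold to 28.7-fold. This was rank 55 from the lowest among the 13087 log2 fold changes. Pea3 TKO 3 kept the most Kcnn4 of the mutant libraries, and it also had the highest Etv4 and Etv5 of the 3. The order did not hold below it, since Kcnn4 was lowest in Pea3 TKO 2 and Etv4 and Etv5 in Pea3 TKO 1. Pea3 TKO 3 also differed from the other mutant libraries in Y-linked and mesenchyme marker levels, and a link of Kcnn4 with any of these was not tested. With the summed Y-linked level as a covariate the log2 fold change was -3.33, and Kcnn4 passed the threshold in each of the 14 alternatives tried.

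The 250 bases before the RefSeq start of Kcnn4, Aqp3 and Cftr, the gene that fell and the pair with the largest rises, were read because the deleted factors bind DNA at ETS sites with the core GGAA, searched here as GGAAG. They are printed 5′ to 3′ on the gene's strand (RefSeq, GRCm38.p6), with each GGAAG, or CTTCC where GGAAG is on the other strand, in capitals. The windows are chr7:24370013-24370262 (plus) for Kcnn4, chr4:41098184-41098433 (minus) for Aqp3 and chr6:18170437-18170686 (plus) for Cftr.
Kcnn4: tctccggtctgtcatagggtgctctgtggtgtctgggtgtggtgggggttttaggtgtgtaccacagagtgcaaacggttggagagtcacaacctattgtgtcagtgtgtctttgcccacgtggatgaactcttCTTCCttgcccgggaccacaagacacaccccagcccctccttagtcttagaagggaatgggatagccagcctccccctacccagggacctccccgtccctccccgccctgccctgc
Aqp3: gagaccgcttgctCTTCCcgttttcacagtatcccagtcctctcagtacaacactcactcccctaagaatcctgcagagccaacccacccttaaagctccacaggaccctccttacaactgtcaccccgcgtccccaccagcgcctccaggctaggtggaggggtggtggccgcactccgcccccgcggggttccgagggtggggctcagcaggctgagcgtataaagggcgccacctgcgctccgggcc
Cftr: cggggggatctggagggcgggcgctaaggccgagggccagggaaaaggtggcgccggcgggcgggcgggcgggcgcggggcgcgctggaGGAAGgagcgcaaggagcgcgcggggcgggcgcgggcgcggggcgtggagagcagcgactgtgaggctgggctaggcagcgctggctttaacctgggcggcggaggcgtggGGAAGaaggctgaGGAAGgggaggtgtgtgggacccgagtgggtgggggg
GGAAG occurred 1 time each in the windows of Kcnn4 and Aqp3 and 3 times in that of Cftr. GGAA without the following G also occurs in these windows and was neither marked nor counted. A RefSeq window was found for 7 of the 9 genes, all but Aqp4 and Slc12a2, and 6 of these 7 held GGAAG on either strand, the exception being Atp1b1, whereas 64.1% of all 32851 windows of that length did so. The longer GGAAGT was in 1 of the 7, Aqp5, and in 19.7% of all windows, and CCGGAAGT was in 0 of the 7 and in 2.88% of all windows. Each longer motif contains the shorter. The RefSeq window of Ano1 lies inside the gene span given below, and that of Aqp5 mostly does, because the spans came from another annotation. A match of letters is not a binding site, and its absence says only that these letters are not in this window.

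The chloride channel genes both rose. Cftr (chr6:18170687-18322768, plus strand), the cyclic AMP-regulated chloride and bicarbonate channel, had 4.0, 0.187 and 1.43 CPM in Control 1, 2 and 3, from 71, 3 and 22 counts, and 30.9, 19.0 and 13.9 CPM in Pea3 TKO 1, 2 and 3, from 486, 272 and 236 counts. The lowest mutant library was above the highest Control library, and the Control libraries were spread widely, with Control 2 at the floor of 3 counts. The means were 1.87 ± 1.95 and 21.3 ± 8.72 CPM (SD, n = 3 each), a log2 fold change of 3.48 (SE 0.73, adjusted p = 0.0085) and an 11.2-fold rise (95% interval 3.59 to 34.8). It ranked 201 from the highest of all tested genes. Ano1 (chr7:144588549-144751974, minus strand), the calcium-activated chloride channel, had 46.9, 14.2 and 16.9 CPM in Control 1, 2 and 3 and 160, 75.9 and 70.4 CPM in Pea3 TKO 1, 2 and 3. Again no library of one group reached the values of the other, and replicate 1 was the highest of each group. The means were 26.0 ± 18.1 and 102 ± 50.4 CPM (SD, n = 3 each), a 3.93-fold rise (95% interval 1.92 to 8.03, log2 fold change 1.97, SE 0.46, adjusted p = 0.013). Without Control 1 the log2 fold changes were 4.71 for Cftr and 2.72 for Ano1, and Ano1 missed the threshold without Control 2 (1.68, adjusted p = 0.051) or without Pea3 TKO 1 (1.49, adjusted p = 0.057). An antisense transcript, Gm15592, shares 129 exonic bases with Cftr, and reads in that stretch could not be assigned to a strand here.

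Per kilobase of exons, which allows levels of different genes to be compared, the level of Ano1 was 14.6 and 14.7 times that of Cftr in Control 1 and 3. In Control 2 the ratio was left out because it rests on 3 Cftr counts. It was 6.46, 4.96 and 6.32 times that of Cftr in the Pea3 TKO libraries. Ano1 was thus the more abundant chloride channel transcript in all 6 libraries, and the ratio was lower in every mutant library than in Control 1 and 3.

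Among the basolateral genes, the pump subunit rose and the cotransporter did not pass the test. Atp1b1 (chr1:164437109-164458355, minus strand) had 35.5, 20.4 and 23.2 CPM in Control 1, 2 and 3 and 81.2, 82.3 and 45.6 CPM in Pea3 TKO 1, 2 and 3. The groups did not overlap, although Pea3 TKO 3 lay nearer to Control 1 than to the other mutant libraries. The means were 26.4 ± 8.02 and 69.7 ± 20.9 CPM (SD, n = 3 each), a 2.64-fold rise (95% interval 1.73 to 4.01, log2 fold change 1.40, SE 0.27, adjusted p = 0.0058). Atp1b1 shares 575 exonic bases with Nme7 on the opposite strand, and Nme7 had 56.6 ± 4.13 and 68.6 ± 9.08 CPM (adjusted p = 0.19). Slc12a2 (chr18:57878678-57946821, plus strand) had 95.9, 208 and 135 CPM in Control 1, 2 and 3 and 166, 162 and 135 CPM in Pea3 TKO 1, 2 and 3. The mutant values all lay within the range of the Control values, which was set by Control 1 and Control 2. The means were 146 ± 57.1 and 154 ± 17.0 CPM (SD, n = 3 each) with a log2 fold change of 0.07 (SE 0.24, adjusted p = 0.86), and the 95% interval of the ratio, 0.728 to 1.52, still allows a change of up to about that size in either direction.

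Of the aquaporins, Aqp3 alone passed the test. Aqp3 (chr4:41092722-41098183, minus strand), a channel for water and glycerol found in the basal layers of stratified surface epithelia such as epidermis and conjunctiva, had 16.4, 3.18 and 1.56 CPM in Control 1, 2 and 3 and 67.0, 49.0 and 58.6 CPM in Pea3 TKO 1, 2 and 3. The mutant libraries were similar to each other, with a coefficient of variation of 15.5%, and all were above the Control libraries, which spread over 10.5-fold with Control 1 the highest. The means were 7.05 ± 8.14 and 58.2 ± 9.03 CPM (SD, n = 3 each), an 8.17-fold rise (95% interval 2.94 to 22.7, log2 fold change 3.03, SE 0.66, adjusted p = 0.0097). Without Control 1 the log2 fold change was 4.61. It ranked 303 from the highest of all tested genes.

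Aqp4 (chr18:15389496-15410982, minus strand), a water channel best known from glial end feet and basolateral membranes, had 3.04, 3.24 and 6.37 CPM in Control 1, 2 and 3 and 1.72, 5.04 and 3.52 CPM in Pea3 TKO 1, 2 and 3. The groups overlapped. The log2 fold change was -0.30 (SE 0.55, adjusted p = 0.73), and the 95% interval of the ratio, 0.347 to 1.90, is wide at this level. The 7 nerve and glia markers summed to 28.3 to 30.9 CPM in the Control and 16.8 to 29.0 CPM in the Pea3 TKO libraries, most of it from Fabp7, with Gfap at 0.650 CPM or less in every library, and their part in the level of Aqp4 was not tested.

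Aqp5 (chr15:99590782-99594829, plus strand) had 11, 0 and 2 counts in Control 1, 2 and 3 and 4, 1 and 8 counts in Pea3 TKO 1, 2 and 3. The highest of these values was 0.620 CPM, and the groups overlapped, so no difference was detectable at this depth. Aqp1 (chr6:55336432-55348555, plus strand), a water channel of endothelium and red cells, had 8, 0 and 7 counts in Control 1, 2 and 3 and no counts in any Pea3 TKO library, which allows up to 0.191, 0.21 and 0.176 CPM there. Since Control 2 also had none, the groups overlapped. With the low-count filter left out, the adjusted p was 0.15 for Aqp1 and 0.98 for Aqp5 (edgeR). The endothelial markers Emcn and Tie1 were at 0 in every library, and the 7 endothelial markers summed to 2.49 to 3.44 CPM in the Control and 0.176 to 7.76 CPM in the Pea3 TKO libraries. The erythroid markers summed to 36.0 to 120 CPM in the Control and 51.7 to 237 CPM in the Pea3 TKO libraries. Of the 8 listed, 6 had entries, with Hba-a1 and Hba-a2 at 0. The part of endothelium or red cells in the level of Aqp1 was not tested.

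**Figure D2:**
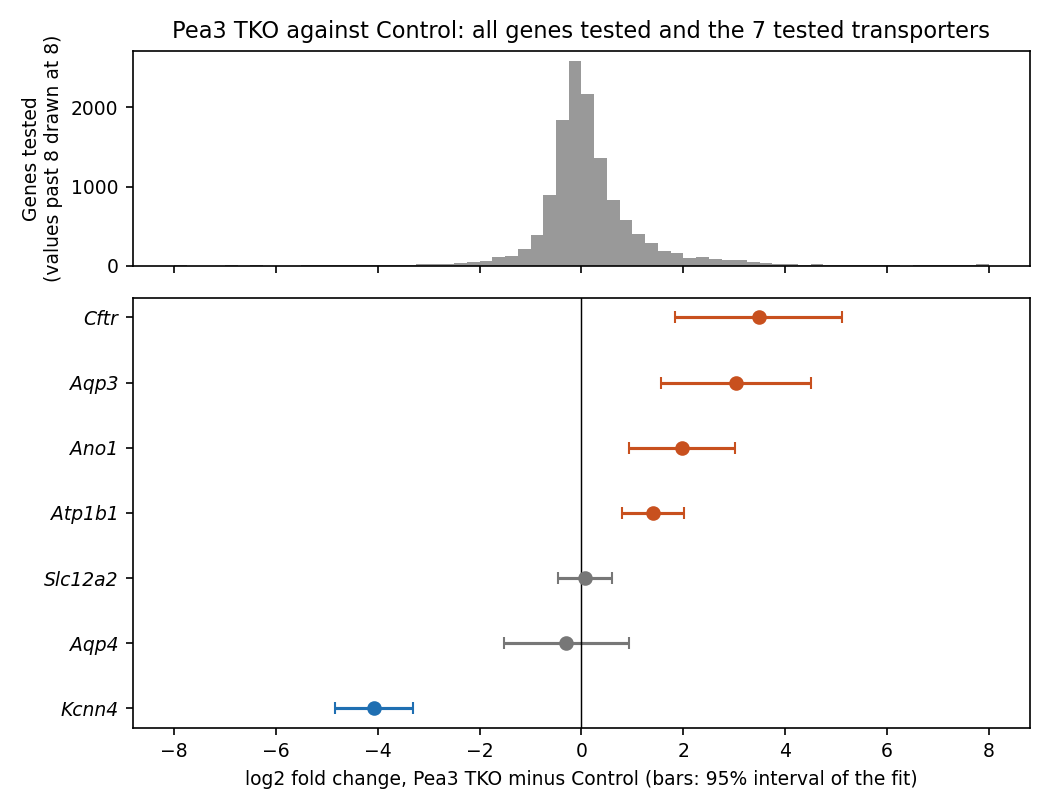
Log2 fold changes (Pea3 TKO minus Control) of all 13087 tested genes as a histogram (upper panel, number of genes, with values past 8 drawn at 8) and of the 7 tested transporter genes as points with the 95% interval of the fit (lower panel; orange higher, blue lower, gray not called). The intervals of Cftr, Aqp3, Ano1 and Atp1b1 lie above 0, that of Kcnn4 lies below 0, and those of Slc12a2 and Aqp4 span 0.

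The order of the genes by level differed between the groups. Levels per kilobase of exons in Control were 23.0 ± 0.93 for Kcnn4, 13.4 ± 5.23 for Slc12a2, 8.57 ± 2.60 for Atp1b1, 4.16 ± 2.90 for Ano1, 3.85 ± 4.45 for Aqp3, 0.677 ± 0.30 for Aqp4 and 0.241 ± 0.251 for Cftr (CPM per kilobase, mean ± SD, n = 3). Aqp1 and Aqp5 were lowest, at means of 0.115 and 0.096. Kcnn4 was the most abundant of the 9 in all 3 Control libraries, and Kcnn4 and Slc12a2 were the only neighbors in this order whose values did not overlap.

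In Pea3 TKO, Aqp3 came first at 31.8 ± 4.94, followed by Atp1b1 at 22.6 ± 6.78, Ano1 at 16.4 ± 8.07, Slc12a2 at 14.1 ± 1.56, Cftr at 2.74 ± 1.12, Kcnn4 at 1.35 ± 0.79, Aqp4 at 0.549 ± 0.267 and Aqp5 at 0.102 CPM per kilobase, with Aqp1 listed at 0. The neighbors whose values did not overlap were Aqp3 and Atp1b1 (26.8 at the lowest against 26.7 at the highest), Slc12a2 and Cftr, and Aqp4 and Aqp5. Aqp5 and Aqp1 were not separated in this way, since a count of 0 for Aqp1 allows a level above the lowest value of Aqp5. The order among Atp1b1, Ano1 and Slc12a2 was therefore within the spread of the libraries. With the length of the longest transcript in place of all exons, Ano1 and Slc12a2 changed places in Pea3 TKO and Aqp1 and Aqp5 in Control.

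**Figure D3:**
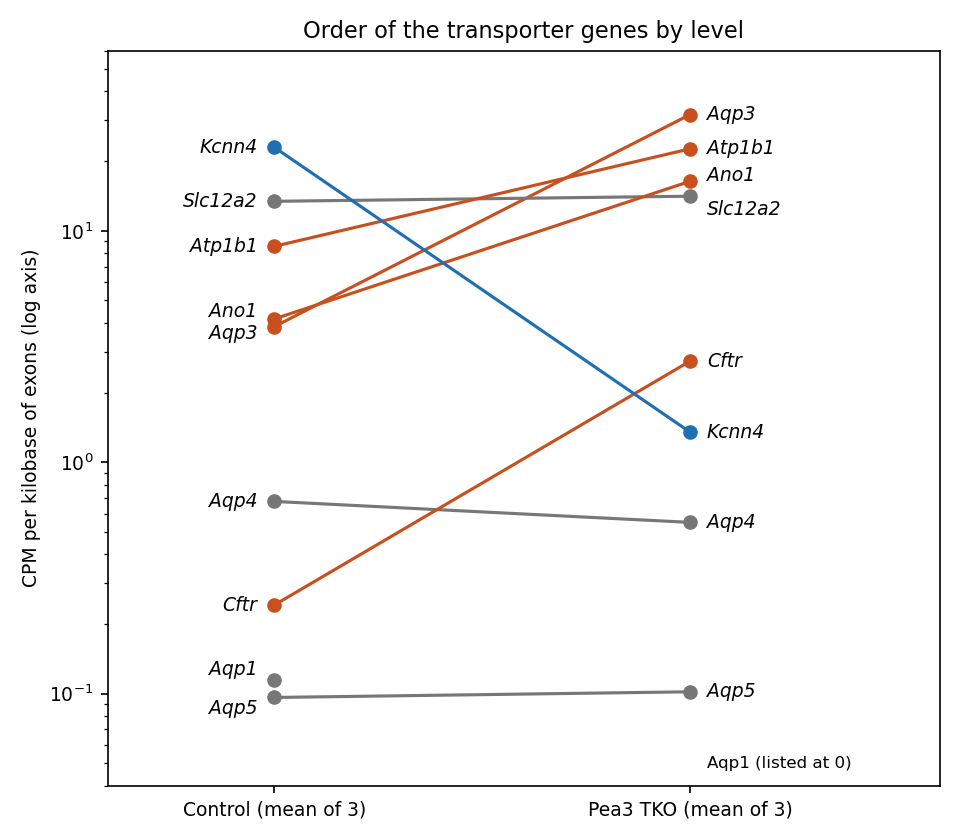
Mean level of each transporter gene in CPM per kilobase of exons (log axis) in Control (left, n = 3) and Pea3 TKO (right, n = 3), joined by lines that are orange where the gene rose, blue where it fell and gray where it was not called or not tested. Kcnn4 goes from the highest mean in Control to a mean of 1.35 in Pea3 TKO, and Aqp3 from 3.85 to the highest mean, 31.8. Aqp1, at 0 in Pea3 TKO, has no line.

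Measured within single libraries, the change of order between Kcnn4 and each of Aqp3, Ano1 and Slc12a2 was seen in all 6. The ratio of Aqp3 to Kcnn4 per kilobase was 0.407, 0.0753 and 0.0358 in Control 1, 2 and 3 and 33.1, 37.6 and 14.4 in Pea3 TKO 1, 2 and 3. That of Ano1 to Kcnn4 was 0.341, 0.0982 and 0.113 in the Control libraries and 23.2, 17.1 and 5.06 in the Pea3 TKO libraries. Slc12a2, which itself did not pass the test, was at 0.399, 0.827 and 0.518 times Kcnn4 in the Control libraries and at 13.7, 20.9 and 5.53 times in the Pea3 TKO libraries. Kcnn4 transcripts were thus above those of Aqp3, Ano1 and Slc12a2 in every Control library and below them in every mutant library. Pea3 TKO 3 had the smallest of each mutant ratio. This did not hold for Cftr and Aqp4, since Kcnn4 in Pea3 TKO 3 (2.228 CPM per kilobase) was above Cftr (1.785) and Aqp4 (0.5654).

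Libraries of a group also differed in a shared way. Control 1 was the highest Control library for Aqp3, Atp1b1, Cftr and Ano1, the 4 genes that rose in Pea3 TKO, and the lowest for Kcnn4. Pea3 TKO 3 was the lowest mutant library for Atp1b1, Cftr and Ano1 and the highest for Kcnn4, but not for Aqp3, where Pea3 TKO 2 was lowest.

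Markers of stratified surface epithelium were, as a sum, also higher in Pea3 TKO. The lacrimal bud arises from conjunctival epithelium, and the list holds keratins of stratified epithelia such as Krt5, Krt14 and Krt15. The 11 markers of this list summed to 2242, 1136 and 1074 CPM in Control 1, 2 and 3 and to 8466, 7605 and 6262 CPM in Pea3 TKO 1, 2 and 3. Of the 11, 10 were higher in Pea3 TKO, with only Trp63 not called, beside 13.6% higher of all tested genes. All 11 had counts in at least 1 library. Control 1 was again the highest Control library and Pea3 TKO 3 the lowest mutant library. The order did not hold throughout, since the marker sum was lowest in Control 3 and Atp1b1, Cftr and Ano1 were lowest in Control 2. The part of this epithelium in the levels of Aqp3, Atp1b1, Cftr, Ano1 and Kcnn4 was not tested, and a change in the share of captured cells and a change in RNA per cell cannot be told apart in bulk samples.

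**Figure D4:**
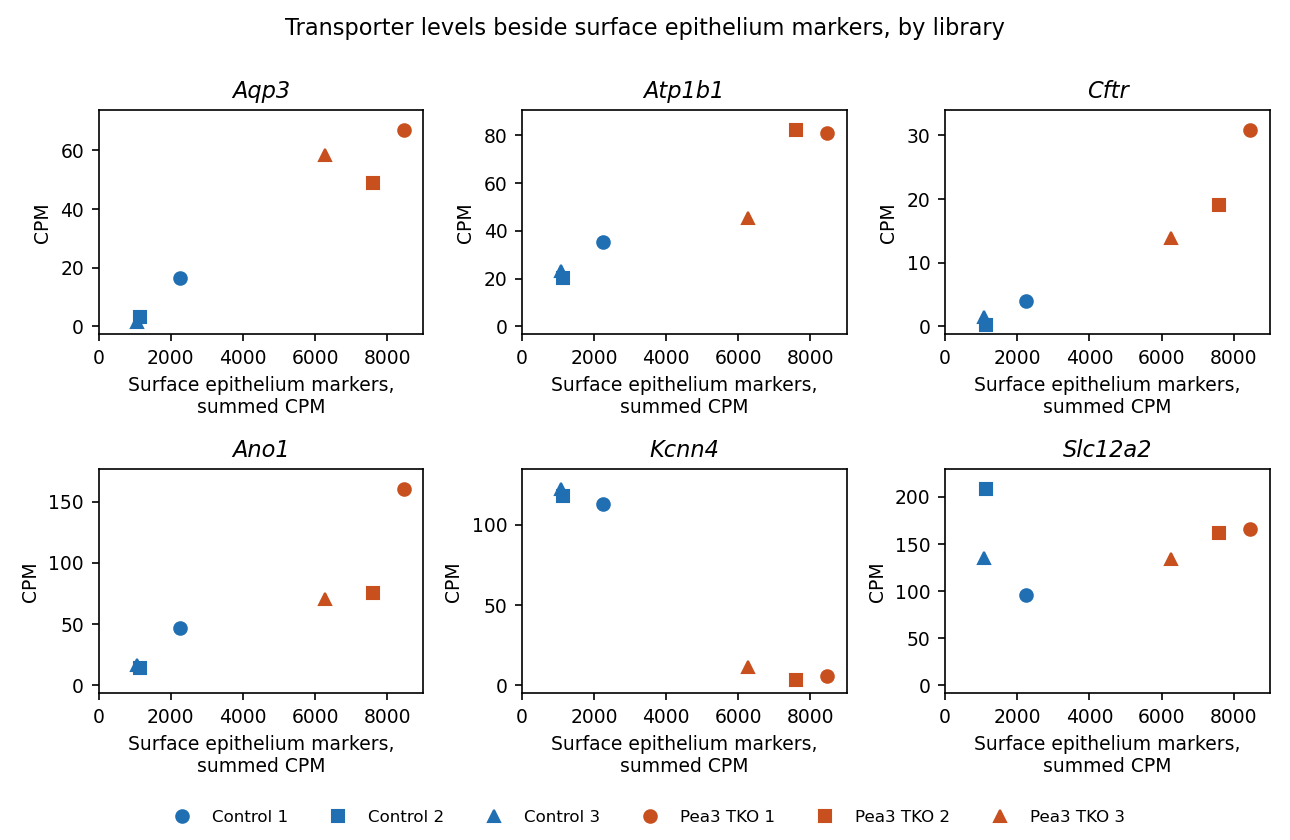
Level of 6 transporter genes (CPM, vertical axes) in each library plotted against the summed level of 11 surface epithelium markers (CPM, horizontal axes), with Control in blue, Pea3 TKO in orange and symbols for the replicate number. The marker sum is 1074 to 2242 CPM in the Control and 6262 to 8466 CPM in the Pea3 TKO libraries, and Control 1 lies to the right of the other Control libraries, with the highest Control values of Aqp3, Atp1b1, Cftr and Ano1.

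Markers of other tissues did not all follow the groups. The 9 mesenchyme markers summed to 233, 250 and 297 CPM in Control 1, 2 and 3 and to 670, 837 and 270.5 CPM in Pea3 TKO 1, 2 and 3. Of the 9, Lum and Dcn were called higher and 7 were not called, beside 13.6% higher of all tested genes. The groups overlapped for both, with Lum at 2.06 CPM and Dcn at 2.41 CPM in Pea3 TKO 3 against 8.39 and 4.42 CPM in Control 3. Foxc1 made up most of the Control sums and of that in Pea3 TKO 3, and the other 8 markers summed to 14.7, 20.8 and 113 CPM in Control 1, 2 and 3 and to 399, 558 and 11.5 CPM in Pea3 TKO 1, 2 and 3. Pea3 TKO 1 and 2 were thus far above the Control libraries and Pea3 TKO 3 was below them. The part of mesenchyme in the levels of the transporter genes was not tested. The immune, nerve and glia, and muscle lists overlapped between the groups or stayed at 30.9 CPM or less in all libraries. The lens markers summed to 133 to 811 CPM in the Control and 138 to 267 CPM in the Pea3 TKO libraries. The highest value was in Control 2, which also had the highest Slc12a2, and the part of lens in its level was not tested. With the summed Y-linked level as a covariate none of the 4 genes that rose passed the threshold. Their log2 fold changes were then 3.12 for Aqp3, 0.79 for Atp1b1, 2.92 for Cftr and 1.49 for Ano1, with adjusted p of 0.071, 0.18, 0.11 and 0.22.

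The wider machinery of water and ion transport was described from 9 lists of 136 genes, 90 of which were tested. Of these, 15 were higher and 9 lower in Pea3 TKO, 26.7% in all, which is near the 25.0% of all tested genes, and their median log2 fold change was 0.08. The counts given below for each list stand beside 13.6% higher and 11.3% lower of all tested genes, and no list was tested as a whole. Genes are given from the 3 with the highest mean CPM of each list, and any other gene is named after its values were seen.

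Among other sodium pump subunits and FXYD regulators, 2 of 9 tested genes rose and 0 fell. Atp1b3, the beta3 subunit, went from 329 to 426 CPM (adjusted p = 0.028). Fxyd3 had 115 and 84.4 CPM (adjusted p = 0.085). Fxyd2, named after its values were seen, went from 0.981 to 5.46 CPM (adjusted p = 0.018). Of the other cation-chloride cotransporters, 1 of 6 fell and 0 rose. It was Slc12a7, a potassium-chloride cotransporter that moves chloride out of the cell, which went from 142 ± 9.40 to 69.6 ± 13.1 CPM (adjusted p = 0.0015), while Slc12a4 had 68.0 and 63.0 CPM and Slc12a9 12.7 and 15.5 CPM, neither called.

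Of the other chloride channel and channel accessory genes, 2 of 16 rose and 2 fell. Ano6 and Ano10 were not called, and Lrrc8d, a subunit of the volume-regulated anion channel, went from 115 to 62.7 CPM (adjusted p = 0.0011). Outside these 3, Clcn2 fell and Clca2 and Lrrc8e rose. Of the other potassium channels of secretory epithelia, 3 of 9 fell and 0 rose, and these were the 3 with the highest mean CPM of the list, without regard to length. Kcnk5, an acid-sensitive channel, went from 53.7 ± 6.91 to 20.1 ± 2.27 CPM (adjusted p = 5.8e-04), and Kcnma1, the large-conductance calcium-activated channel, went from 10.5 ± 0.323 to 1.98 ± 1.34 CPM (adjusted p = 0.013). Kcnk1 went from 218 to 166 CPM (adjusted p = 0.042). These counts stand beside 11.3% lower and 13.6% higher of all tested genes, and the list as a whole was not tested. It summed to 287 to 310 CPM in the Control and 188 to 220.5 CPM in the Pea3 TKO libraries.

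Of the acid-base transporters and carbonic anhydrases, 2 of 17 rose and 1 fell. Car12, a membrane carbonic anhydrase, went from 152 ± 19.5 to 309 ± 28.2 CPM (adjusted p = 7.5e-04), and the anion exchanger gene Slc4a2 had 97.5 and 130 CPM (adjusted p = 0.091) beside 41.6 and 49.2 CPM for Slc26a2. Named after their values were seen, Car2 went from 2.73 to 15.5 CPM and Slc26a9, an epithelial anion transporter, from 61.5 to 27.5 CPM (adjusted p = 0.0038 each). The epithelial sodium channel, which absorbs sodium across apical membranes, has 3 subunits in this list, and 2 rose. Scnn1g went from 4.10 ± 4.31 to 35.6 ± 16.9 CPM (adjusted p = 0.013) and Scnn1b from 3.01 ± 3.35 to 18.9 ± 7.72 CPM (adjusted p = 0.022). Scnn1a, the alpha subunit, was at 0.639 and 1.13 CPM and was not called. As with Aqp3 and Cftr, Control 1 was the highest Control library for Scnn1g (8.91 CPM) and Scnn1b (6.88 CPM).

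Of the receptors and calcium-release genes that start secretion, 4 of 16 rose and 1 fell. The calcium-permeable channel gene Trpv4 went from 28.9 to 58.6 CPM (adjusted p = 0.0014) and the store-operated channel gene Orai3 from 22.04 to 45.9 CPM (adjusted p = 0.0044), while the calcium sensor gene Stim1 had 37.9 and 30.2 CPM (adjusted p = 0.20). The gene that fell, named after its values were seen, was Chrm1, a muscarinic acetylcholine receptor. It had 28.0, 43.9 and 45.3 CPM in Control 1, 2 and 3 and 2.60, 6.01 and 12.0 CPM in Pea3 TKO 1, 2 and 3 (log2 fold change -2.50, SE 0.46, adjusted p = 0.0044), so that, as for Kcnn4, Control 1 was the lowest Control library and Pea3 TKO 3 the highest mutant library. Itpr3 and Trpc1, also outside the rule, were the other genes that rose. Of the regulators of transporter activity, 3 of 12 rose and 1 fell. Ezr, which links apical membrane proteins to actin, went from 399 to 603 CPM (adjusted p = 0.0081) and the scaffold gene Slc9a3r1, whose protein binds that of Cftr, from 108 to 209 CPM (adjusted p = 0.002). Stk39, whose kinase activates NKCC1, went from 80.7 to 46.3 CPM (adjusted p = 0.0033), while Slc12a2 itself was not called. Wnk4, named after its values were seen, went from 0.791 to 10.3 CPM (adjusted p = 0.0021). Of the other aquaporins, 6 of 8 were at 0 in every library, and Mip and Aqp11 were each below 3 CPM on average in both groups and not called.

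**Figure D5:**
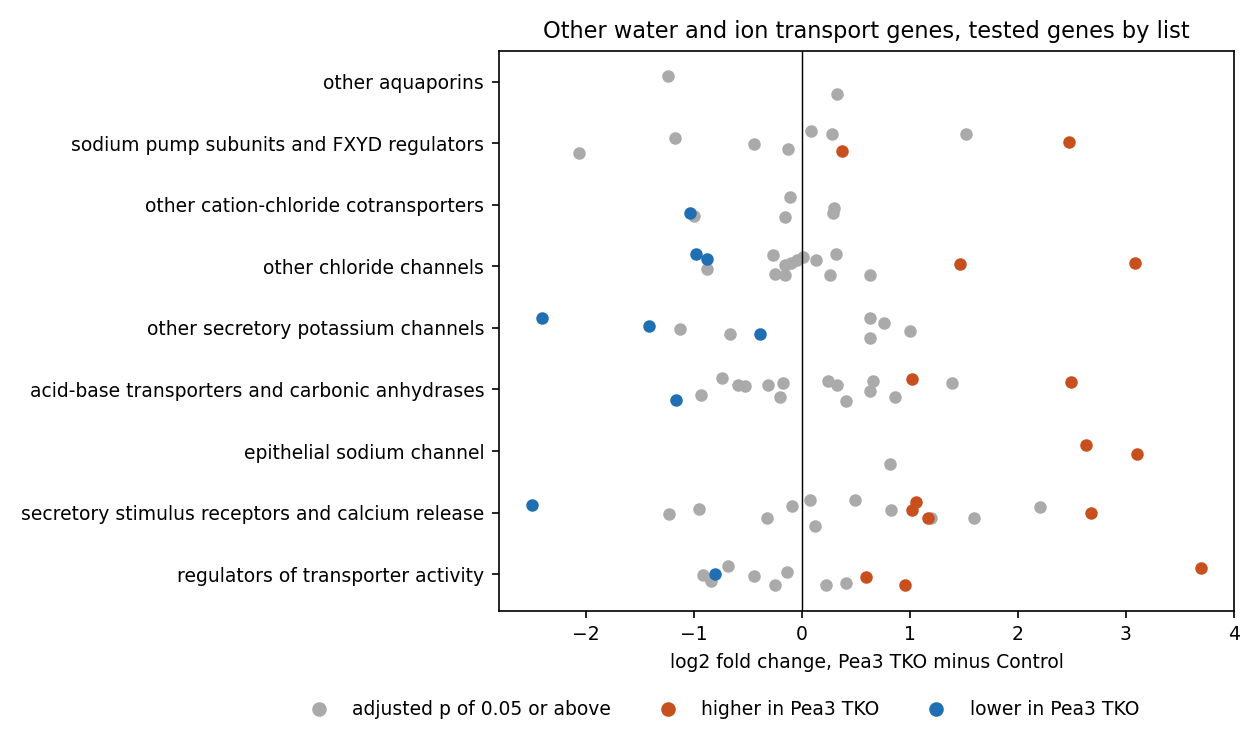
Log2 fold change (Pea3 TKO minus Control, horizontal axis) of the 90 tested genes in 9 lists of other water and ion transport genes (rows), with genes higher in Pea3 TKO in orange, lower in blue and not called in gray. The potassium channel list has 3 genes that fell and 0 that rose, and the epithelial sodium channel list has 2 that rose and 0 that fell.

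As a description of which other genes varied most like Aqp3, Atp1b1 and Slc12a2, the members with the highest CPM per kilobase averaged over all 6 libraries, Pearson's r of log2(CPM + 1) over the 6 libraries was computed for 9727 genes with a mean of at least 10 CPM. The nearest to Aqp3 were Camk2d, Metrnl and Tgm1 (r of 0.997, 0.997 and 0.996), and the nearest to Atp1b1 were Mxd1, Bnc2 and Ptgs1 (r of 0.996, 0.995 and 0.995). All of these were higher in Pea3 TKO on average, and the values largely reflect the difference between the groups that the libraries share. Slc12a2, whose groups overlapped, varied most like Ccdc132, Mbd4 and Sirt1 (r of 0.970, 0.967 and 0.966).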

How the data were processed

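RNA of 6 libraries of laser-captured E14.5 lacrimal gland epithelium (3 Control, 3 Pea3 TKO) was amplified with a Nugen Ovation kit and, per the labels, made into Illumina TruSeq libraries. The authors deposited 1 table of raw read counts per gene symbol and library, without normalization. The submitters' processing notes name bcl2fastq 2.17, STAR 2.5.2b, featureCounts 1.5.0-p3, DESeq and the mm10 build. The annotation and strand setting are not given in the sources used here, so overlapping antisense genes cannot be separated.

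From these counts, genes were kept by filterByExpr, normalized by TMM and tested with the quasi-likelihood test of edgeR 4.0.16 in R 4.3.3 (group as the only term, Benjamini-Hochberg adjustment over 13087 genes, threshold 0.05). CPM uses the TMM-scaled library size. The SE was taken as the size of the log2 fold change over the root of the F statistic. Exonic lengths and positions came from GENCODE M21 (GRCm38) and promoter windows from RefSeq (GRCm38.p6). Levels per kilobase used the union of exons. The scripts were tested on simulated data. There the share of false calls of DESeq2, an alternative here, exceeded the mark first set, which was then applied to the edgeR test only. Within groups no library duplicated another.

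The 9 genes and all lists were chosen with earlier results of these data known. Named genes were the members, the targeted genes, the 3 genes with the highest mean CPM of each wider list, the markers beside a result and the 3 genes most similar to each of 3 members. Some results under this rule are not reported here. Alternatives were DESeq2 1.42.0, RLE size factors or none, no low-count filter or a stricter one, a replicate block, a Y-linked covariate and leaving out each library.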

Additional observations from a re-analysis of the deposited data

How the results depend on the processing

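Kcnn4 passed the threshold of 0.05 in all 14 alternatives (log2 fold change -4.66 to -3.33, highest adjusted p 0.0013). Aqp3 (2.56 to 4.61), Cftr (2.89 to 4.71) and Atp1b1 (0.79 to 1.67) each passed in 12 of 14 and Ano1 (1.45 to 2.72) in 10 of 14, all with the same sign throughout. Slc12a2 (-0.16 to 0.41) and Aqp4 (-0.68 to 0.12) passed in 0 of 14. With the Y-linked covariate, 778 genes passed, 492 higher and 286 lower, with 0 of the 9 transporters higher and 1 lower, and 4 wider transport genes higher and 3 lower. With Control 1 to 3 against Pea3 TKO 3 alone, an alternative chosen after seeing the data that assumes the lone library to vary like the other group, 597 genes passed, 315 higher and 282 lower, with 0 of the transporters higher and 1 lower (log2 fold changes of 3.07 for Aqp3, 0.80 for Atp1b1, 2.89 for Cftr, 1.45 for Ano1 and -3.36 for Kcnn4), and 2 wider genes higher and 5 lower. Both of these fits rest on fewer residual degrees of freedom, the Y-linked level and genotype were separated only through Pea3 TKO 3, and the cause of the lower counts was not tested. Leaving out each library in turn, the number of genes that passed ran from 1948 (without Control 3) to 3344, with 1131 to 1948 higher and 799 to 1417 lower, 3 to 4 transporters higher and 1 lower, and 11 to 17 wider genes higher and 7 to 13 lower. A replicate block gave 3191 genes, again with 4 transporters higher and 1 lower. The replicate numbers gave no clear pairing. Deviations from the group means correlated at r of 0.144, -0.064 and 0.045 for numbers 1, 2 and 3, the first being the highest of all pairs. Control 2 correlated best with Pea3 TKO 3 (0.119). With 3 libraries per group these values cannot exclude a pairing. Aqp1 and Aqp5 were limited by depth.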
